A study of Mus musculus with 4 samples.

Results

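NK cells of YUMMER1.7 melanoma tumors were described from 2 pooled single-cell RNA-Seq libraries, and 257 of 6625 kept barcodes (3.88%) were NK cells. YUMMER1.7 is a mouse melanoma cell line that is highly immunogenic, and it was grown under the skin of the flank of WT male C57BL/6J mice that were 7–8 weeks old. All groups carried the same unmodified tumor, and each was treated with isotype IgG1, anti–PD-1 (clone RMP1-14), anti-MIF (clone IIID.9) or both antibodies (anti–PD-1/anti-MIF, the combination arm). Tumors of the long treatment cohort were taken after 2 weeks and 4 doses, at day 21, and those of the short treatment cohort after 1 week and 2 doses, at day 14. Sorted CD45+ and CD45- cells were recombined to enrich immune cells, so a share of barcodes is not a density in the tumor. A 5th hashtag, named anti-PD1-MIF-DDT in the files, has no treatment text in the labels, and its barcodes enter the comparison with CD8 T cells but no test of a treatment. Every arm was 1 hashtagged sample of a cohort, with no replicate arm, and each cohort was 1 library, so cohort, day, doses and library cannot be told apart. The number of mice behind a hashtag was not given in the sources used here.

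A barcode was called an NK cell by its own RNA. It had at least 2 UMIs (unique molecular identifiers, each standing for 1 captured transcript) of Ncr1, Klrb1c and Klre1 together, at most 1 UMI of Cd3d, Cd3e and Cd3g, none of Cd8b1 and at most 5 of Lyz2. Ncr1 encodes the activating receptor NKp46, Klrb1c encodes NK1.1 and Klre1 encodes a lectin-like receptor of the NK gene complex. These genes chose the members, so their values are a description and no test was made on them. CD8 T cells, the nearest class for comparison, had at least 2 UMIs of the CD3 genes and 2 of Cd8a and Cd8b1, no Cd4, at most 1 UMI of the NK receptors and at most 5 of Lyz2. There were 327 CD8 T cells, and no barcode was in both classes.

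NK cells are innate lymphocytes that kill without a rearranged antigen receptor. They weigh signals from activating receptors, which use adaptor proteins such as DAP12, against inhibitory receptors that read MHC class I on the target. Killing uses perforin, which opens the target membrane, and granzymes, which enter through it. NK cells also secrete chemokines such as XCL1, which draws cross-presenting dendritic cells into tumors, and IFN-γ. They share much of this program with CD8 T cells, and this makes CD8 T cells the closest contrast in the same tumor.

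The arm of each barcode was read from 15-base hashtag barcodes, shown because every comparison between arms rests on them. All bases are in capitals because the whole barcode was read.
Isotype: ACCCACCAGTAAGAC
anti-PD1: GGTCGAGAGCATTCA
anti-MIF: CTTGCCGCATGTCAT
anti-PD1-MIF: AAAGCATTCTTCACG
anti-PD1-MIF-DDT: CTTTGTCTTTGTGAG
A barcode was kept only when its leading hashtag had at least 3 times the UMIs of the next. Over all barcodes, the anti-PD1 hashtag had the highest median in both cohorts, at 229 UMIs in the long and 50 in the short cohort. Its part in the shares of that arm was not tested.

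The long cohort held 2516 barcodes with 23702910 gene UMIs, of which 2053 were kept. The short cohort held 4987 barcodes with 31799441 gene UMIs, of which 4572 were kept. NK cells had a median of 5302 UMIs and 2133 genes in the long cohort and 4433 UMIs and 1784 genes in the short cohort. CD8 T cells were close to these depths, at 4848 and 4066 UMIs, whereas Lyz2-high myeloid cells had 11400 and 7012. Over the NK cells of an arm the summed UMIs ran from 40572 to 762178, and the 2 libraries shared 20 barcode sequences. Arms of the long cohort, with 5 to 11 NK cells each, therefore gave much less precise levels than the 146 NK cells of the short anti–PD-1 arm.

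Members differed in which of the gate genes they held, which describes the rule and tests nothing. Among the 257 members, 228 (88.7%) had a UMI of Klre1, 205 (79.8%) of Klrb1c and 162 (63.0%) of Ncr1, and 117 (45.5%) had all 3. Gzma, the granzyme A gene, was not used by the rule, and 206 members (80.2%) had a UMI of it. Eomes, a transcription factor that marks conventional NK cells, had a UMI in 144 members (56.0%). With cells thinned to 1500 UMIs, Gzma was seen in 57.5% of NK cells of the long cohort (95% interval 40.9 to 73.0) and 78.9% in the short cohort (72.8 to 84.3). In CD8 T cells the same shares were 2.17% and 7.43%. Myeloid cells were chosen with at least 10 UMIs of Lyz2 and no UMI of an NK gate gene or a CD3 gene. That choice can remove barcodes holding free RNA of NK or T cells, so their shares may understate the background. In these deeper cells the shares were 0% (0 of 871 cells, which allows up to 0.344%) and 0.210%. Gzma, a gene outside the rule, was thus seen in most members and in few cells of the other classes.

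Of 440 barcodes with at least 2 UMIs of the NK receptors, the limit on CD3 genes removed 171, that on Lyz2 removed 11 and that on Cd8b1 removed 1. Members at the threshold differed from the others. In the short cohort, Gzma had a UMI in 27.0% of 37 barcodes with 1 NK receptor UMI, just outside the gate. It had one in 56.2% of 32 members with 2 UMIs, just inside, and in 90.5% of 21 with 3 and 87.7% of 163 with 4 or more. In the long cohort the share was 5.88% of 17 barcodes just outside and 42.9% of 7 just inside.

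A small set of members carried MHC class II genes, which antigen-presenting cells use and mouse NK cells are not known for. H2-Aa, H2-Ab1 and Cd74, the invariant chain, together had more than 10 UMIs in 12 of the 257 members, against 2 of 327 CD8 T cells. The other 245 members had at most 3. These 12 barcodes held 3639 of the 3726 class II UMIs of all members. They came from 6 arms, with 2 in the long anti–PD-1 arm, 2 in the long anti-PD1-MIF-DDT arm, 5 in the short anti–PD-1 arm and 1 each in the short isotype, anti-MIF and anti-PD1-MIF-DDT arms. Nkg7, a granule membrane gene of cytotoxic lymphocytes, had a UMI in 4 of the 12 and in 233 of the 245, and Gzma in 4 and 202. Of genes used by dendritic cells, Zbtb46 had a UMI in 6 of the 12 and 11 of the 245, Flt3 in 3 and 0, and Itgax, which NK cells can also express, in 9 and 81. The B cell genes Cd79a and Ms4a1 were at 0 in all members, and Ighm of the same list was not at 0, as given with the genes of other cell types. The 12 were deeper, with a median of 9902 UMIs against 4431. They were members by the rule and stayed in. Several results are also given without them, but the sums of dendritic cell genes are given only with them.

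**Figure D1:**
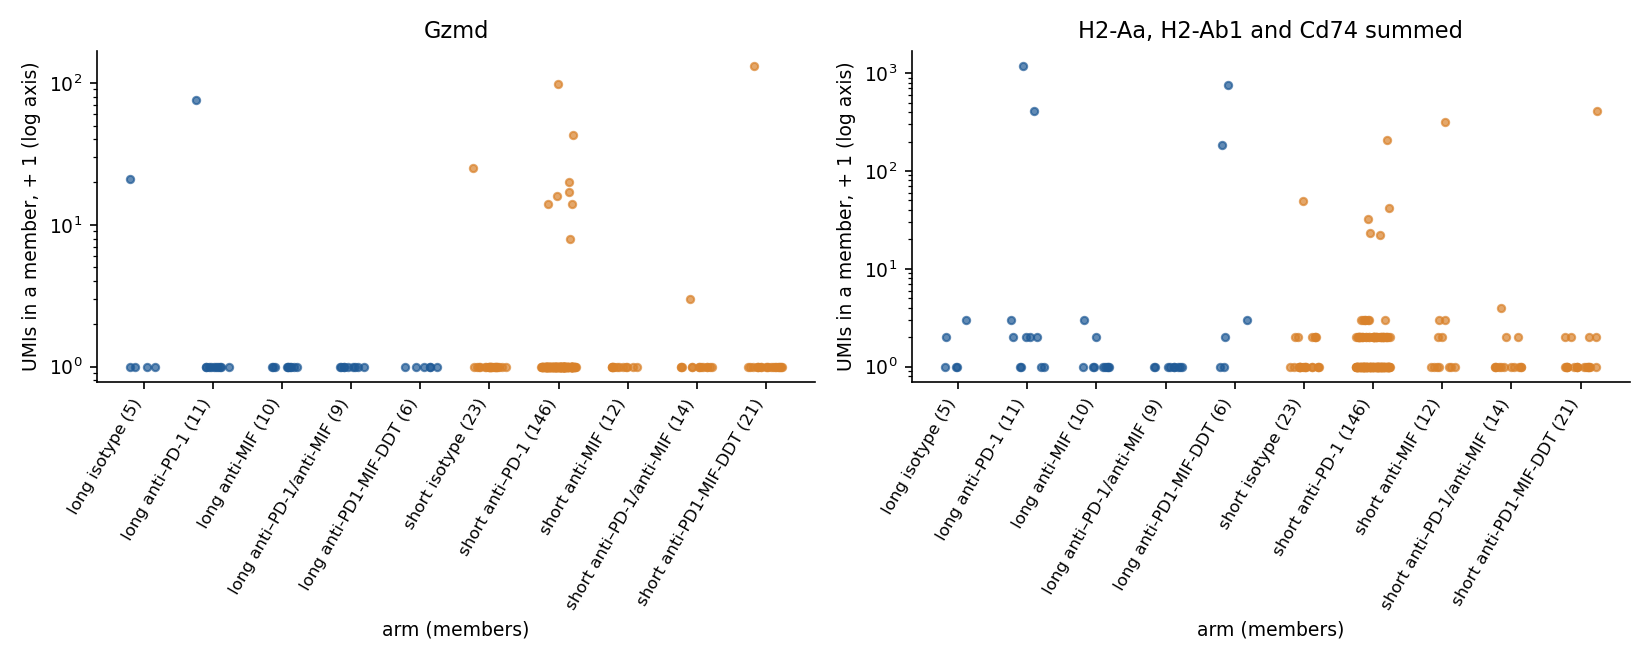
UMIs of Gzmd (left) and of H2-Aa, H2-Ab1 and Cd74 summed (right) in each NK cell (1 point), plus 1 on a log axis, by arm, with the number of members in parentheses. Gzmd lay in 13 members, up to 131 UMIs in 1 barcode, and the class II genes in 12 members above 10 UMIs, in 6 of the 10 arms.

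Gene levels of NK cells and CD8 T cells were compared over the 10 arms, asking what separates these 2 cytotoxic lymphocytes of the same tumors. UMIs were summed per arm and class, levels are UMIs per 1000000 UMIs of that sum (CPM), and the arm was a block in the test of edgeR. NK cells had far more granzyme A, DAP12 and FcRγ adaptor and Ly49 receptor transcripts, and CD8 T cells had the checkpoint genes, Cxcr6 and the T cell receptor signalling genes. Of 3114 genes tested outside the gates, 554 (17.8%) passed at an adjusted p under 0.05, with 291 (9.34%) higher and 263 (8.45%) lower in NK cells. The counts given below for single gene lists stand against these shares over all genes. For 83 genes (2.67%) the lowest arm of one class lay above the highest arm of the other. The median log2 fold change over all tested genes was 0.0053. The scaling was estimated from the same counts, which draws this median towards 0, so it is no check on the scaling. Both classes were chosen from the RNA of the same barcodes, so genes that go with the gate genes were bound to differ to some extent. In sums over a class, more positive cells and more RNA per cell cannot be told apart. Without the 12 class II members 589 genes passed, 467 of them shared, and 87 of the 554 were lost, 30 because they fell under the filter on low counts.

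**Figure D2:**
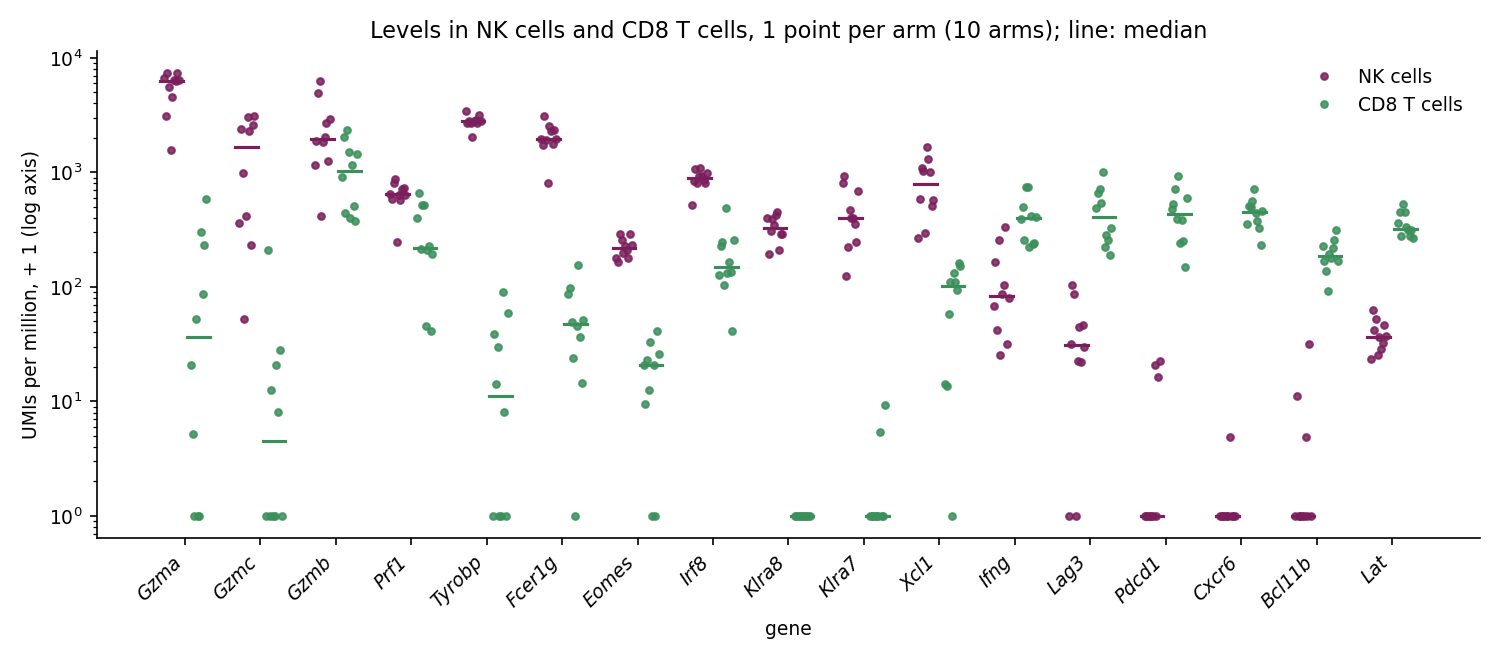
Level of 17 genes in NK cells (purple) and CD8 T cells (green), as CPM plus 1 on a log axis, with 1 point per arm (10 arms) and a line at the median. Gzma, Tyrobp, Fcer1g, Eomes, Irf8, Klra8, Klra7 and Xcl1 lay higher in every arm of NK cells, and Pdcd1, Lag3, Cxcr6, Bcl11b and Lat lower.

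Receptors of the Ly49 family, encoded by Klra genes, gave some of the largest differences. Klra4 (Ly49D), an activating receptor, ran from 221.8 to 629.9 CPM with a median of 388.8 over the arms of NK cells, and no UMI was counted in CD8 T cells. Klra8 (Ly49H), an activating receptor known for its viral ligand, ran from 194.5 to 451.3 CPM with a median of 327.4, and CD8 T cells again had none. Against a floor of 3 UMIs over all CD8 T cells, these were at least 207-fold and 211-fold higher. The inhibitory Klra7 (Ly49G2) ran from 123.9 to 921.4 CPM with a median of 399.7, against 3 UMIs in all CD8 T cells, and its log2 fold change was 7.50 ± 0.36 (SE, adjusted p = 5.1e-13). No arm of CD8 T cells reached any arm of NK cells for these 3 genes.

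The Klra genes are close copies of each other, so reads that fit several copies may have been lost or moved between them, and levels of single members are uncertain. The likeness of the transcripts themselves was not measured. Stretches just before the annotated start, outside the transcript, are shown for the pair of activating genes that CD8 T cells lacked, with capitals at the 4 of 30 bases that differ (86.7% identical). These 30-base stretches are from RefSeq on GRCm38.p6, minus strand, written 5′ to 3′, and lie at chr6:130067272-130067301 for Klra4 and chr6:130129900-130129929 for Klra8.
Klra4: gagtGtTGctcAgaggaaatttagttctgc
Klra8: gagtAtCActcGgaggaaatttagttctgc

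Among 14 activating receptors, 2 belong to the gate, and 10 of the others were tested. Of these, 6 were higher in NK cells, 2 were lower and 2 did not pass, with a median log2 fold change of 1.32. Klrk1, the gene of NKG2D, which reads stress ligands on tumor cells, was 369.0 to 778.1 CPM (median 562.6) in NK cells against a median of 296.0 in CD8 T cells (log2 fold change 0.90 ± 0.16, adjusted p = 3.4e-04). Klrb1f rose to a median of 65.0 CPM, with 1 UMI in all CD8 T cells. Klrc2 (1.92, adjusted p = 4.4e-04) and Cd244a (1.73, adjusted p = 9.8e-05), the gene of the 2B4 receptor, were also higher, both named after their values were seen. Cd226, the DNAM-1 receptor, went the other way, at 0 to 61.9 CPM (median 23.6) in NK cells against a median of 198.8 in CD8 T cells (-2.80, adjusted p = 5.5e-06), without overlap of the arms. So the list did not move as 1 block.

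Of 16 genes listed as inhibitory receptors, 11 were tested outside the gate, 8 (Klri2 among them) were higher, 1 was lower and 2 did not pass (median log2 fold change 3.78). Whether each listed gene acts as an inhibitor was not checked. The higher ones included Klra3 (3.78, adjusted p = 1.1e-05), Klrb1b (3.90, adjusted p = 2.2e-07), Klra1 (6.23, adjusted p = 5.6e-07) and Klra9, which had no UMI in CD8 T cells and was at least 60.5-fold higher. Klrg1, a receptor of mature NK cells, was at a median of 32.4 CPM against 2.11 (2.89, adjusted p = 0.0088). Klrc1, the gene of NKG2A, was the 1 lower member, at 49.3 to 365.3 CPM (median 218.9) in NK cells against a median of 539.1 in CD8 T cells (-1.27 ± 0.24, adjusted p = 6.1e-04). Its partner chain Klrd1 (CD94) was 491.4 to 1487 CPM in NK cells and did not pass with all members (0.36, adjusted p = 0.127). It passed as higher without the class II members (0.49, adjusted p = 0.0092), with at least 3 UMIs of the NK receptors (0.44, adjusted p = 0.0259), with arms of at least 10 cells (0.53, adjusted p = 0.0410) and without the long anti–PD-1 arm (0.46, adjusted p = 0.0448). In the NK gene complex on mouse chromosome 6, between 128609227 and 131247362, 18 genes were tested, of which 13 were higher in NK cells, Gm156 and Klrc1 were lower, and Klrd1, Cd69 and Clec2d did not pass.

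UMIs of these receptors lay in different combinations in the members. Of 8 Ly49 genes counted, 215 members (83.7%) had a UMI of at least 1 and 168 (65.4%) of at least 2. Reads moved between the close copies can make 1 expressed gene look like several, and their part in these combinations was not tested. Klra7 was seen in 132 members, Klra8 in 124 and Klra4 in 109. A UMI of Klrc1 together with a Ly49 gene was found in 81 members (31.5%), and 17 (6.61%) had neither. A gene with no UMI in a cell of this depth may still be expressed, so absence cannot be read from these counts. Klra7 had a UMI in 3 of 2386 myeloid cells of the short cohort (0.126%) and in none of 872 in the long cohort.

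Adaptors and kinases act behind the receptors. The adaptor genes Tyrobp (DAP12) and Fcer1g (FcRγ), which carry the signal of activating NK receptors, were 2046 to 3444 CPM (median 2794) and 813.4 to 3077 CPM (median 1950). In CD8 T cells their medians were 10.2 and 46.3 CPM, and the log2 fold changes were 6.61 ± 0.34 (adjusted p = 4.2e-12) and 5.11 ± 0.26 (adjusted p = 3.5e-12). Both genes are also used by myeloid cells, and without the class II members the differences were 7.38 and 5.33. Plcg2, a phospholipase downstream, was at a median of 107.4 CPM against 0 (4.25, adjusted p = 2.6e-06). Syk, the kinase of DAP12, had 95 UMIs in NK cells and 1 in CD8 T cells (5.22, adjusted p = 2.5e-05), but it fell under the count filter without the class II members.

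Lat and Zap70, a scaffold and a kinase of T cell receptor signalling, were lower in NK cells. Lat was 22.4 to 61.4 CPM in NK cells (median 35.9) and 266.6 to 527.1 CPM in CD8 T cells (-3.19 ± 0.19, adjusted p = 7.2e-11). Zap70 (-1.72) was named after its values were seen, and its arms did not overlap either. Hcst (DAP10), the adaptor of NKG2D, was lower as well, at a median of 391.5 against 822.2 CPM (-0.99, adjusted p = 1.5e-05). In all, 4 of the 15 tested members of this list of 18 were higher, 5 were lower and 6 did not pass, with a median of -0.14. Clnk, an adaptor of immune receptor signalling, had no UMI in CD8 T cells and was at least 118-fold higher in NK cells.

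**Figure D3:**
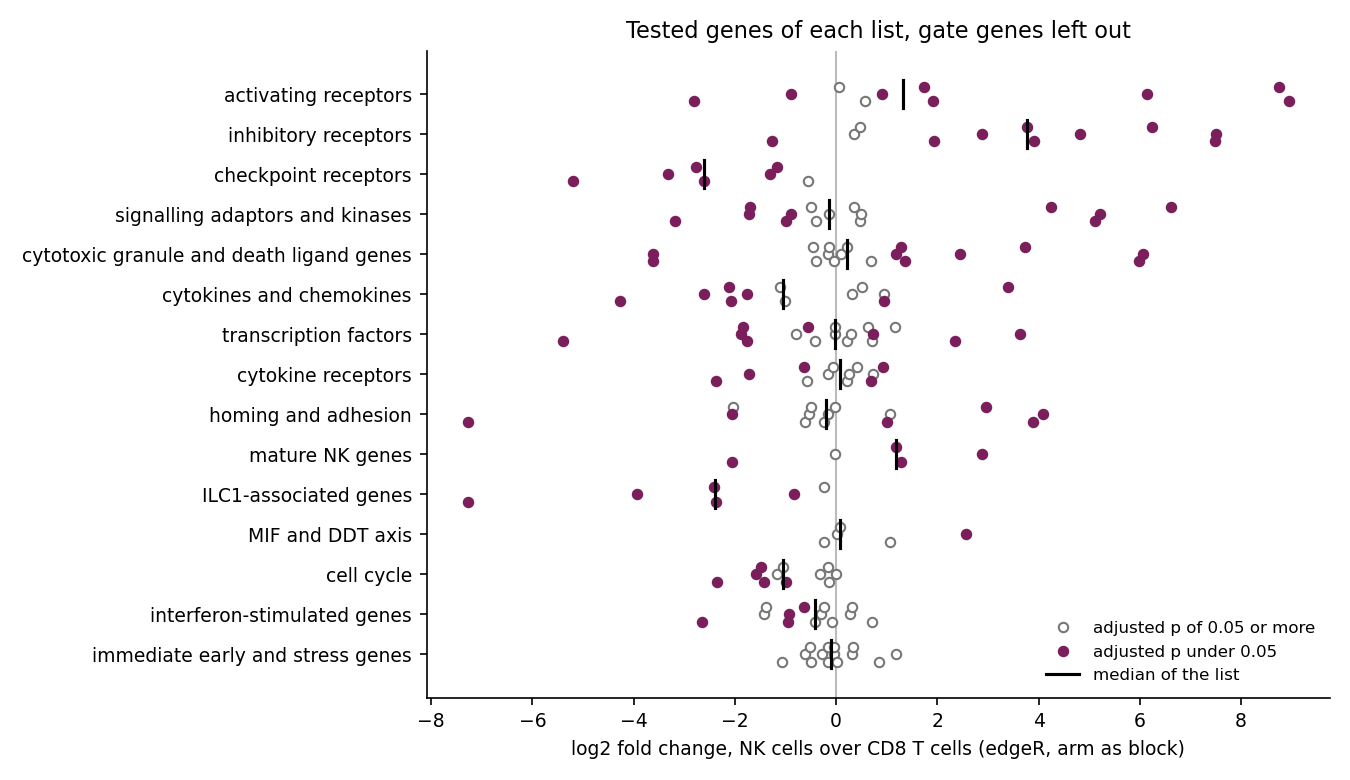
Log2 fold change of NK cells over CD8 T cells for the tested genes of 15 lists, gate genes left out, with filled points at an adjusted p under 0.05 and a bar at the median of each list. Inhibitory receptors lay mostly to the right (median 3.78), checkpoint receptors (-2.61) and ILC1-associated genes (-2.40) to the left, and no immediate early gene passed.

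Granzyme genes did not move together. Gzma was 1553 to 7393 CPM in NK cells (median 6315) and 0 to 583.1 CPM in CD8 T cells (median 35.7), a log2 fold change of 6.07 ± 0.48 (adjusted p = 5.4e-09), and every arm of NK cells lay above every arm of CD8 T cells. Gzmc was 51.1 to 3082 CPM (median 1655) against 0 to 211 CPM (5.98 ± 0.48, adjusted p = 6.2e-09), but only 64 of the 257 members held its 3129 UMIs. Single barcodes held 231 of 235 Gzmc UMIs in the long anti–PD-1 arm, 168 of 169 in the short combination arm and all 17 in the long anti-PD1-MIF-DDT arm. Gzmb, the main caspase-cleaving granzyme of both cell types, was 419.0 to 6299 CPM (median 1961) against a median of 1038 CPM, and the arms overlapped (1.19 ± 0.31, adjusted p = 0.0098). Prf1 (perforin) was 246.5 to 868.2 CPM (median 644.0) against a median of 219.4 CPM (1.28 ± 0.30, adjusted p = 0.0036). Prf1 was higher in NK cells in 8 of 10 arms and lower in the long anti–PD-1 arm (583.6 against 654.2 CPM) and the long anti-PD1-MIF-DDT arm (246.5 against 515.4 CPM). Over the short cohort Prf1 was 568.1 to 731.9 CPM in NK cells and 40.5 to 227.5 CPM in CD8 T cells, without overlap, whereas the arms of the long cohort overlapped, and this difference between the cohorts was not tested. Transcript gaps between the classes were thus smaller for Gzmb and Prf1 than for Gzma.

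Other granzymes rested on few cells. Gzmd, with 475 UMIs in 13 members, gave 3.73 ± 0.51 (adjusted p = 3.9e-05). DESeq2 did not call it, at a fold of similar size (3.28, adjusted p = 0.4045). Gzme, with 182 UMIs in 12 members, gave 2.44 (adjusted p = 0.014), a call that ended without the short anti–PD-1 arm (1.80), without the short anti-PD1-MIF-DDT arm (2.50), without both arms of the 5th hashtag (2.33) and in DESeq2 (1.67). Gzmk, a granzyme of memory-type T cells, was at a median of 3.62 CPM against 135.4 CPM (-3.62, adjusted p = 1.9e-07). Gzmf was also lower (-3.61, adjusted p = 0.0025), with 137 UMIs in 2 members, and did not pass with arms of at least 10 cells (-2.75, adjusted p = 0.0575). Nkg7 was 616.2 to 3660 CPM in NK cells against a median of 3097 CPM in CD8 T cells and did not pass (adjusted p = 0.169), but it passed as lower with no filter on low counts (-0.47, adjusted p = 0.0216) and without the short combination arm (-0.55, adjusted p = 0.0361). Over the list of 21 granule and death ligand genes, 17 were tested, of which 7 were higher, 2 were lower and 8 did not pass (median 0.22).

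Cytokine genes differed gene by gene, and the arms of Xcl1 did not overlap. Xcl1 was 268.3 to 1663 CPM in NK cells (median 798.0) and 0 to 162.0 CPM in CD8 T cells (median 100.5), a log2 fold change of 3.39 ± 0.27 (adjusted p = 7.3e-09). Tgfb1 was at a median of 388.0 against 205.6 CPM (0.94, adjusted p = 0.0069). Ifng, named after its values were seen, was 24.6 to 334.0 CPM (median 82.4) in NK cells against 220.7 to 744.8 CPM in CD8 T cells (-1.76 ± 0.28, adjusted p = 8.3e-05). The growth factor Csf1 (-4.27, adjusted p = 1.6e-07), the lymphotoxin gene Ltb (-2.07, adjusted p = 1.0e-08) and Ccl1 and Tnf were lower too. Ccl5 had 1628 to 14680 CPM in NK cells and 882.7 to 6199 CPM in CD8 T cells, and Ccl4 had medians of 869.9 and 2044 CPM, and neither passed (adjusted p = 0.443 and 0.153). Ccl5 passed as higher with arms of at least 10 cells (adjusted p = 0.0481), and Ccl4 as lower with no filter, with no arm block and without the short isotype arm (-1.31 to -1.08). Of the 15 listed, 12 were tested, 2 were higher, 5 were lower and 5 did not pass (median -1.05).

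The transcription factors of the NK lineage separated the classes in part. Eomes was 163.8 to 289.7 CPM over the arms of NK cells (median 217.3) and 0 to 40.5 CPM in CD8 T cells (median 19.9), with a log2 fold change of 3.63 ± 0.27 (adjusted p = 1.6e-09). Irf8 was 514.3 to 1101 CPM against a median of 149.6 CPM (2.34 ± 0.20, adjusted p = 1.8e-08), and 2.53 without the class II members. Bcl11b, which fixes T cell identity, was at a median of 0 against 184.9 CPM (-5.39 ± 0.38, adjusted p = 5.3e-10). Eomes and Irf8 were higher in every arm and Bcl11b lower in every arm, without overlap.

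The related factor Tbx21 (T-bet), named after its values were seen, was 73.9 to 392.3 CPM in NK cells and 66.2 to 200.5 CPM in CD8 T cells and did not pass (0.22, adjusted p = 0.586). Runx3, which both cell types use, did not pass either (0.30, adjusted p = 0.385), and Ets1 was slightly lower (-0.56, adjusted p = 0.0118), a call that was lost with arms of at least 10 cells (-0.47, adjusted p = 0.0879) and with no arm block (-0.51, adjusted p = 0.0674). Of 21 listed factors, 17 were tested, 3 were higher, 5 were lower and 9 did not pass (median -0.02).

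Windows before the start of a gate gene and of the leading granzyme gene are shown because they hold the 6-base core bound by RUNX factors, TGTGGT, on the other strand, in capitals. The sequences are from RefSeq on GRCm38.p6, 5′ to 3′, at chr7:4337662-4337691 on the plus strand for Ncr1 and chr13:113101014-113101043 on the minus strand for Gzma, and the core begins 41 and 50 bases before the start.
Ncr1: caggcctcacccACCACAtcctgtgcatct
Gzma: gagaagaacaaaACCACAtcctttgcactc
Both strands of the 250 bases before the start were searched for TGTGGT and for the T-box core, GTGTGA. The RUNX core was in 13.9% of 223 promoters of genes higher in NK cells, 12.4% of 185 promoters of genes lower, 10.4% of the promoters of all genes tested and 14.2% of all 27025 promoters. The T-box core was in 9.87%, 12.4%, 8.71% and 12.2% of the same sets. The same windows of Klra4, Klra8 and Eomes held neither core, and that of Gzmc held the RUNX core at 2 positions. That of Ncr1 also held the RUNX core at 176 and the T-box core at 80 bases before the start. That of Gzma held no core beyond the one shown. A match is a description and not a binding site, and no match says only that these letters are not there.

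Of the checkpoint receptor genes tested, 6 of 7 were lower in NK cells than in CD8 T cells. Pdcd1, the gene of PD-1 and so of the target of anti–PD-1, was 0 to 21.7 CPM in NK cells with a median of 0, and 148.5 to 934.2 CPM in CD8 T cells with a median of 435.8 (-5.20 ± 0.35, adjusted p = 3.9e-10). A UMI of Pdcd1 was seen in 8 of the 257 members, all in the short cohort. With cells thinned to 1500 UMIs, it was in 0 of 40 NK cells of the long cohort, which allows up to 7.5%, and in 1.91% of NK cells of the short cohort. CD8 T cells had it in 52.2% and 36%, and myeloid cells in 0.230% and 0.0420%. Pdcd1 in NK cells was 19.7 CPM in the short anti–PD-1 arm, 15.2 in the short combination arm and 21.7 in the short anti-PD1-MIF-DDT arm. No UMI was counted in the other 7 arms, where 3 UMIs would be 21.3 to 73.9 CPM, so a difference between arms was not detectable at this depth.

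Lag3 was 0 to 103.2 CPM in NK cells against 189.0 to 998.6 CPM in CD8 T cells (-3.33 ± 0.28, adjusted p = 1.3e-08). Ctla4 (-2.77), Havcr2 (-2.61), Cd96 (-1.30) and Entpd1 (-1.17) were also lower. Tigit, a receptor that both classes use, was 102.4 to 402.5 CPM in NK cells and did not pass (-0.56, adjusted p = 0.103), but it passed without the short anti-MIF arm (adjusted p = 0.0488) and without the short combination arm (adjusted p = 0.0471). Of the 8 genes of this list, 7 were tested, 6 were lower and none was higher (median -2.61).

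Homing genes differed gene by gene. Cxcr6, a chemokine receptor of resident lymphocytes, was at 0 in 9 of 10 arms of NK cells and 229.5 to 708.7 CPM in CD8 T cells (-7.28 ± 0.34, adjusted p = 5.1e-13), with 3 UMIs in all NK cells. Ccr2 (2.96) and Itga2 (4.08), the gene of the NK marker CD49b, were higher in NK cells, and Cx3cr1 was lower (-2.06). Of 18 listed genes, 14 were tested, 4 were higher, 2 were lower and 8 did not pass (median -0.20). Genes associated with ILC1, the resident relatives of NK cells, were lower in 5 of 6 tested, of 10 listed (median -2.40). They were Cxcr6, Rora (-3.94), Inpp4b (-2.41), Il7r (-2.38) and Gpr183 (-0.84), all of which T cells also express, and Itga1 (CD49a) was 17.0 to 103.2 CPM and did not pass (adjusted p = 0.727).

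The maturation stages of mouse NK cells are read from Cd27 and Itgam (CD11b). At this depth 149 members had a UMI of neither, 62 of Cd27 alone, 36 of Itgam alone and 10 of both, so most members could not be staged. Itgam had a UMI in 86.2% of myeloid cells of the short cohort, and the part of their free RNA was not tested. Of the 8 genes listed for mature NK cells, 5 were tested, of which Klrg1, Prf1 and Gzmb were higher and Cx3cr1 was lower.

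Cytokine receptor genes differed in both directions. Il2rb, a chain of the IL-2 and IL-15 receptors, was 419.0 to 1225 CPM in NK cells against a median of 646.8 CPM and did not pass with all members (0.42, adjusted p = 0.132). It passed without the class II members (0.66, adjusted p = 8.0e-04), with at least 3 UMIs of the NK receptors (0.55, adjusted p = 0.0191), with arms of at least 10 cells (0.62, adjusted p = 0.0284) and without the long anti-PD1-MIF-DDT arm (0.55, adjusted p = 0.0154). Il2rg did not pass (-0.17, adjusted p = 0.533). Ifngr1 was higher (0.68, adjusted p = 0.0069). Of 17 listed, 12 were tested, 2 were higher, 3 were lower, among them the IL-7 receptor gene Il7r, and 7 did not pass (median 0.075). Proliferation genes were lower in 5 of 11 tested, of 18 listed, and higher in none (median -1.05). Tubb5 (-1.43, adjusted p = 3.4e-04) and Hmgb2 (-0.99, adjusted p = 5.6e-04) were among them, and so was Stmn1, whose call was lost under 7 alternatives (-1.47 to -1.17, adjusted p 0.0607 to 0.112). Of 16 interferon-stimulated genes, 13 were tested, 4 were lower, including Ifi27l2a (-2.64, adjusted p = 3.6e-06), and none was higher (median -0.42). None of the 14 immediate early and stress genes passed (median -0.10).

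Mif, the target of anti-MIF, was counted in NK cells at 223.6 to 887.1 CPM (median 570.2), and the difference from CD8 T cells did not pass (-0.23, adjusted p = 0.507). With cells thinned to 1500 UMIs, it was in 32.5% of NK cells and 54.3% of myeloid cells of the long cohort and in 44.5% and 44.99% in the short cohort, and the part of free RNA in the NK level was not tested. Of its receptor genes, Cd74 was at a median of 283.7 CPM, up to 13800 CPM in 1 arm (2.57, adjusted p = 0.031). This rested on the 12 class II members, since without them the difference was -0.88 and did not pass (adjusted p = 0.0857), and the call was also lost without the long anti–PD-1, long anti-PD1-MIF-DDT, short isotype, short anti-MIF or short anti-PD1-MIF-DDT arm (1.91 to 2.65). Of the 7 genes of the MIF and DDT list, 5 were tested and 1, Cd74, passed, against 17.8% of all genes tested. This count does not set the list apart from all genes.

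Genes of other cell types were read in the same sums. The T cell genes outside the gate were lower in 5 of 6 tested, of 12 listed (median -3.31), with Trac at a median of 14.9 against 362.8 CPM (-4.52) and Cd6 in 1 member. Trbc1 was the exception, at 49.3 to 287.3 CPM in NK cells (median 213.9) against 39.6 to 418.8 CPM (0.18, adjusted p = 0.732), and 163 members (63.4%) had a UMI of it. Transcripts of an unrearranged Trbc locus are known in NK cells. Themis, a T cell development gene, had 5 UMIs in 2 members (-6.83). Trdv4, a variable segment of the T cell receptor delta locus, had no UMI in CD8 T cells and was at least 53.5-fold higher in NK cells. Of the γδ T cell genes, Trdc led and Tcrg-C1, Tcrg-C2 and Sox13 were at 0.

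The summed level of 9 dendritic cell genes ran from 0 to 10650 CPM over the arms of NK cells, with H2-Aa leading, Cd209a and Siglech at 0, and the long anti–PD-1 (7044 CPM) and long anti-PD1-MIF-DDT (10650 CPM) arms far above the rest. These sums include the class II members. H2-Aa and H2-Ab1, the 2 tested genes of this list, were higher in NK cells than in CD8 T cells (median log2 fold change 3.605). Neither passed with at least 3 UMIs of the NK receptors (0.48 and 0.76), in DESeq2 (2.51 and 1.68) or without the 5th hashtag (2.51 and 2.45). The sum of 10 monocyte and macrophage genes ran from 51.1 to 1445 CPM, led by Ly6c2, against 4367 to 11170 CPM in the other barcodes, and Ms4a7 was at 0. The sum of 5 neutrophil genes was at most 30.7 CPM. Of 6 B and plasma cell genes, Cd79a, Ms4a1 and Jchain were among those at 0 and Cd79b had a UMI in 1 member of each cohort. Ighm, the heavy chain gene of IgM, was the 1 tested member and was higher in NK cells, at a median of 81.2 against 11.5 CPM in CD8 T cells (2.52 ± 0.60, adjusted p = 0.0040), and 2.399 without the class II members. It was higher in 9 of 10 arms, and 36.6% of NK cells of the long and 20.8% of the short cohort had a UMI of it, against 30.2% and 18.9% of the deeper myeloid cells. With cells thinned to 1500 UMIs these shares were 7.50% and 10.05% in NK cells and 8.38% and 5.04% in myeloid cells. Of 8 melanoma genes, Mlana, Dct, Tyr, Tyrp1, Sox10 and S100b were at 0, but the first 5 of these were also at 0 in all other kept barcodes and so say nothing about tumor RNA. The part of the other cell types in the levels of NK cells was not tested, apart from the fits without the class II members.

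Txk, a kinase of T and NK cells, and Car2, a carbonic anhydrase, were named after their values were seen, with log2 fold changes of 2.71 ± 0.20 (adjusted p = 1.7e-09) and 5.22 ± 0.35 (adjusted p = 2.9e-10). Klrb1a, which had no UMI in CD8 T cells, was at least 61.3-fold higher. The strongest lower genes by the fixed rule were, beside those described above, A430093F15Rik, Gm44174, Gm8369 and Fam169b, between -6.86 and -5.15. Against all other kept barcodes, a description because the rule set the members apart from them, Gzma had a mean of 5539 CPM over the arms against 16.5 CPM, and a log2 ratio of 8.31. Klra4 (7.99), Klra8 (6.997), Gzmc (6.86), Klra7 (6.65) and Trdv4 (6.33) followed, each higher in 10 of 10 arms, and Eomes was at 6.04. The genes lowest against the other barcodes were Thbs1 (-8.11), Slpi (-7.55), Pla2g7 (-7.54), C1qb (-7.34) and S100a8 (-7.23), of which C1qb, a complement gene of macrophages, and S100a8, a neutrophil and monocyte gene, mark myeloid cells.

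The share of NK cells in each arm was compared next, to ask whether treatment or its length moved it. In the long cohort NK cells were 5 of 159 kept barcodes in the isotype arm (3.14%, 95% interval 1.03 to 7.19) and 11 of 386 in the anti–PD-1 arm (2.85%, 1.43 to 5.04). They were 10 of 895 in the anti-MIF arm (1.12%, 0.537 to 2.04) and 9 of 288 in the combination arm (3.12%, 1.44 to 5.85). In the short cohort they were 23 of 744 in the isotype arm (3.09%, 1.97 to 4.60) and 146 of 1714 in the anti–PD-1 arm (8.52%, 7.24 to 9.94). The anti-MIF arm had 12 of 567 (2.12%, 1.10 to 3.67) and the combination arm 14 of 476 (2.94%, 1.62 to 4.89). The arms of the 5th hashtag had 6 of 325 (1.85%) and 21 of 1071 (1.96%). The interval of the short anti–PD-1 arm lay above those of all other arms, by little in the case of the long isotype arm. The other intervals all overlapped one another, those of the long anti-MIF and short isotype arms barely. The intervals cover counting error only, not the spread between mice.

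**Figure D4:**
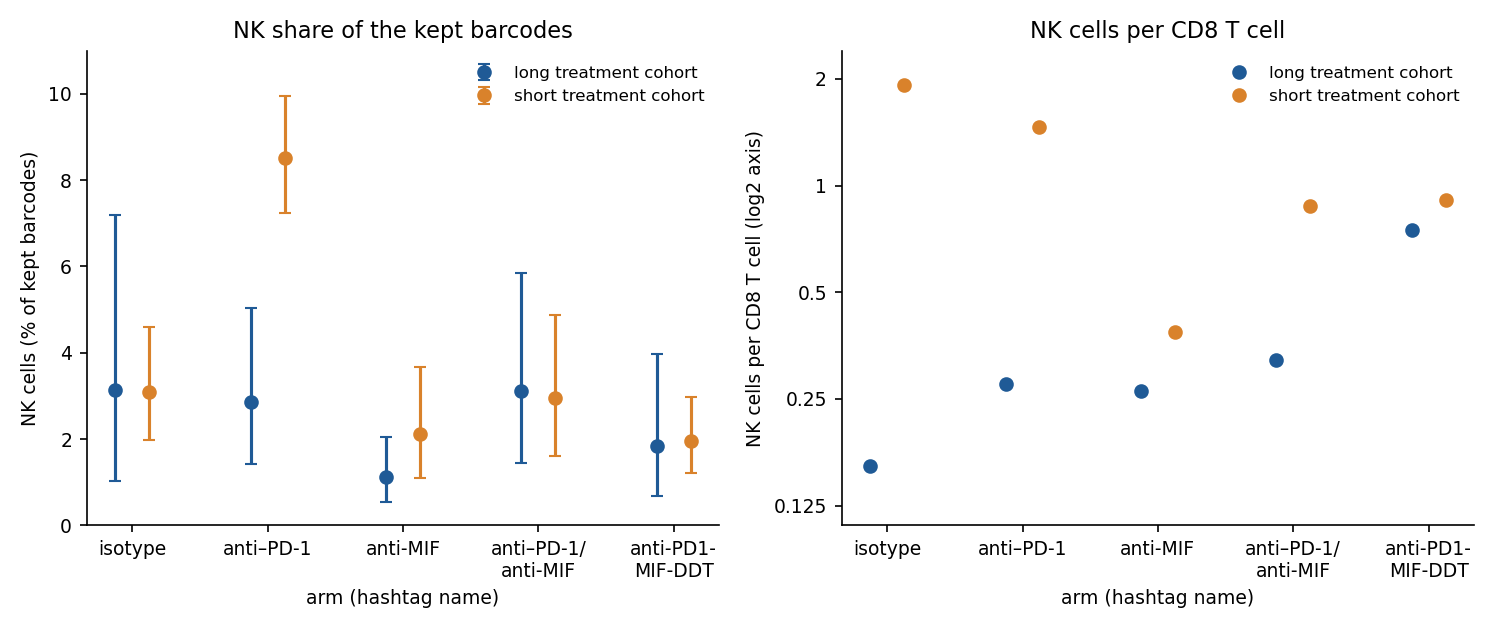
NK cells as a percentage of kept barcodes with exact 95% binomial intervals (left) and NK cells per CD8 T cell on a log2 axis (right), by arm, with the long cohort in blue and the short cohort in orange. The short anti–PD-1 arm was at 8.52%, all others between 1.12% and 3.14%, and the ratio was lower in the long cohort for each of the 5 hashtags.

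Over 4 matched pairs of arms, the share with anti-MIF was 2.08 ± 2.52 percentage points lower (mean difference -2.076, SD, n = 4 pairs, exact two-sided permutation p = 0.25, adjusted over 6 tests 0.5). It was higher in 1 of 4 pairs, with differences of -2.03 and -0.975 against isotype in the long and short cohort, and 0.275 and -5.58 against anti–PD-1 alone. With anti–PD-1 the mean difference was 1.99 ± 2.48 percentage points (3 of 4 pairs higher, exact permutation p = 0.25, adjusted 0.5), and the short isotype pair alone differed by 5.43. The long cohort differed from the short by -1.61 ± 2.76 percentage points (2 of 4 pairs higher, exact permutation p = 0.5, adjusted 0.6). With 4 pairs this test cannot go below a p of 1 in 8, so no share difference could pass. The short anti–PD-1 arm weighed heavily, since without its pair the 3 mean differences were -0.909, 0.846 and -0.254.

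The number of NK cells per CD8 T cell does not depend on the other cells of a library. In the order isotype, anti–PD-1, anti-MIF and combination arm it was 0.161, 0.275, 0.263 and 0.321 in the long cohort. In the short cohort it was 1.92, 1.46, 0.387 and 0.875, and the 5th hashtag had 0.750 and 0.913. All 4 labelled arms were lower in the long cohort, with a mean log2 difference of -1.93 ± 1.24 (n = 4 pairs, exact permutation p of 1 in 8, the smallest this design can give, adjusted 0.5). In the same order of arms, CD8 T cells were 19.5, 10.4, 4.25 and 9.72% of the long cohort's kept barcodes. Of the short cohort's they were 1.61, 5.83, 5.47 and 3.36%, which is lower in all but the anti-MIF arm. The NK share was lower in the long cohort with anti–PD-1 and with anti-MIF, and close to that of the short cohort in the isotype and combination arms. For anti-MIF the mean log2 difference was -0.525 ± 1.28 (2 of 4 pairs higher, exact permutation p = 0.625, adjusted 0.625) and for anti–PD-1 0.443 ± 0.643 (3 of 4, exact permutation p = 0.375, adjusted 0.562).

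Genes of NK cells were then compared between treatments in the 8 labelled arms, with cohort, anti–PD-1 and anti-MIF as additive terms, so the arms served as replicates of each other. With anti-MIF, 1 of 1584 genes passed (0.0631%), Gzmd, which encodes granzyme D, and 55 genes (3.47%) had an unadjusted p under 0.05. In the long cohort Gzmd was 447.2 CPM in the isotype arm, 767.9 in the anti–PD-1 arm and 0 in both arms that received anti-MIF. In the short cohort it was 170.5 in the isotype arm, 292.6 in the anti–PD-1 arm, 0 in the anti-MIF arm and 30.5 in the combination arm. Every arm with anti-MIF lay below every arm without it, and the log2 fold change was -5.54 ± 0.66 (adjusted p = 0.0043).

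This result came from very few cells. In those 8 arms Gzmd had UMIs in 12 members, namely 1 in the long isotype arm, 1 in the long anti–PD-1 arm, 1 in the short isotype arm, 8 in the short anti–PD-1 arm and 1 in the short anti–PD-1/anti-MIF arm. In the long isotype, long anti–PD-1 and short isotype arms a single barcode held all 20, 75 and 24 UMIs. The short anti-PD1-MIF-DDT arm, which was not in the test, had 947.8 CPM from 131 UMIs in 1 barcode, and the long one had 0. The call ended without the long anti–PD-1/anti-MIF arm (-4.76) and with arms of at least 10 cells (-4.70). Gzme, a neighbor of Gzmd, was at 0 in the 4 arms with anti-MIF and 64.0 to 178.9 CPM in the others and did not pass with all members (adjusted p = 0.242). Gzme too rested on few cells. In the long isotype, long anti–PD-1 and short isotype arms 1 barcode held all 8, 16 and 9 of its UMIs. In the short anti-PD1-MIF-DDT arm, which was not in the test, 1 barcode held 33. Gzme passed as lower without the class II members (adjusted p = 0.0203), with at least 3 UMIs of the NK receptors (adjusted p = 0.0116), without the short anti-MIF arm (adjusted p = 0.0317), with no filter on low counts (adjusted p = 1.7e-07) and in DESeq2 (adjusted p = 0.0029). Nr4a3 did not pass (-2.75, adjusted p = 0.242), except with no filter (adjusted p = 2.7e-04). Without the class II members, and also with at least 3 UMIs of the NK receptors, the interferon-stimulated genes Ifitm1 and Ifitm2 passed as lower with anti-MIF (-8.76, adjusted p = 0.0035, and -3.28, adjusted p = 0.0226, in the former fit). With all members they were at -1.26 and -1.76 and did not pass. Gzma, Gzmb, Prf1 and Ifng did not pass, with log2 differences of 0.33, 0.90, 0.31 and 0.68.

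With anti–PD-1, 0 of 1584 genes passed (0%) in edgeR and 0 in DESeq2, and 52 genes (3.28%) had an unadjusted p under 0.05. Among the smallest p-values were those of Cd7 (1.52) and the heat shock gene Hspa1a (2.60), neither of which passed (adjusted p = 0.919 each). Hspa1a passed without the short anti-MIF arm (3.86, adjusted p = 0.0483) and with no filter on low counts (2.65, adjusted p = 3.5e-05). In the long cohort Hspa1a was 67.1 CPM in the isotype and 20.6 in the anti-MIF arm, and 215.0 with anti–PD-1 alone and 340.5 in the combination arm. In the short cohort it was 0, 104.4, 304.4 and 152.5 CPM in the same order. Both cohorts had their higher values with anti–PD-1. Of 14 immediate early and stress genes, 10 were tested here, 9 had a positive difference (median 1.05, against -0.0002 over all genes) and 6 an unadjusted p under 0.05, Fos among them (2.37, adjusted p = 0.919). Over all 1584 genes, 792 had a positive difference and 52 (3.28%) such a p.

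Between the cohorts, 0 of 1584 genes passed (0%) in edgeR and 5 in DESeq2, and 216 genes (13.6%) had an unadjusted p under 0.05. The smallest p-values of edgeR included those of Gm43305 (1.86) and the granzyme inhibitor gene Serpinb9b (2.67). The actin gene Actg1 (1.02) and the elongation factor gene Eef1a1 (0.75) were the others. All were higher in the long cohort, and none passed in that fit (adjusted p = 0.0962 each). Each passed in edgeR with at least 3 UMIs of the NK receptors (adjusted p 0.0125 to 0.0186) and without the class II members (adjusted p = 0.0133). DESeq2 called Actg1 (1.04, adjusted p = 5.9e-04), Eef1a1 (0.77, adjusted p = 0.0016), Eef2, Lsp1 and H2-D1, all higher in the long cohort. In the order isotype, anti–PD-1, anti-MIF and combination arm, Serpinb9b was 201.3, 184.3, 413.0 and 153.2 CPM in the long cohort. In the short cohort it was 78.2, 26.2, 10.4 and 30.5 CPM, below all arms of the long cohort. Without the class II members 16 genes passed, among them Serpinb9b (2.84, adjusted p = 0.0133) and the interferon-stimulated genes Ifitm1 (3.36, adjusted p = 0.0133) and Isg15 (1.93, adjusted p = 0.0235), all higher in the long cohort, and Hsp90aa1 (-1.21, adjusted p = 0.0235), lower.

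Interferon-stimulated genes of NK cells had 9 of 16 members tested in this fit. All 9 were higher in the long cohort (median 0.62, against -0.002 over all genes), as were 788 of all 1584 genes. Of the 9, 4 had an unadjusted p under 0.05, against 216 of the 1584 (13.6%), and none passed after adjustment over all genes. Irf7, a regulator of type I interferon, was 44.7, 184.3, 309.7 and 340.5 CPM in the long cohort and 35.5, 56.4, 62.6 and 61.0 CPM in the short cohort, in the same order of arms (1.82, adjusted p = 0.158). Irf7 in the treated arms of the long cohort lay above all arms of the short. In the long isotype arm it was below the 67.1 CPM that 3 UMIs would be. Whether the isotype arms differed between the cohorts therefore cannot be read from this value. The same 9 genes had medians of 0.62 with anti–PD-1 and 0.80 with anti-MIF, again positive for all 9. Of all 1584 genes, 792 and 776 were positive in these 2 comparisons. Ifitm1 and Ifitm2, which went lower with anti-MIF in the fits named above, are not among these 9. Of the proliferation genes, 5 were tested and all 5 had lower values in the long cohort (median -1.09). Of these, 3 had an unadjusted p under 0.05, against 13.6% of all genes in either direction, and none passed. The 3 comparisons use the same 8 arms.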

How the data were processed

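Tumor cells of each arm were stained with hashtag antibodies and pooled per cohort for 10x 5′ sequencing. Cell Ranger 7.1.0 (mm10) was used upstream, and the UMI counts deposited by the authors are unnormalized whole numbers for every gene and hashtag in the filtered barcodes. Their notes also name Seurat 5.1.0, R 4.3.2 and DESeq2. Barcodes were kept with 200 to 5000 genes, at most 5% mitochondrial UMIs and a leading hashtag of at least 3 times the next. This removed barcodes with 2 similar hashtags. Doublets within an arm, or between arms whose hashtags differed by more than that, could remain, no doublet caller was run, and free RNA was not subtracted.

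The members, gene lists and tests were chosen with earlier results of these data known. UMI sums per arm and class (at least 5 cells) entered edgeR 4.0.16 (R 4.3.3), quasi-likelihood F test, with filterByExpr, TMM and Benjamini-Hochberg adjustment at 0.05. DESeq2 1.42.0 was an alternative. Named genes were the NK markers, up to 4 of each list by mean CPM in NK cells plus called members beyond 2 log2 units, the 10 largest called differences each way of at least 50 CPM in the same direction in every arm, and, per treatment, called genes or else the 3 smallest p. Shares have exact Clopper-Pearson 95% intervals, except that a share of 0 is given with 3 counts of its total as the limit. Differences between arms were tested by exact two-sided sign-flip permutation over 4 pairs, with 0.5 added to both counts in log2 ratios. Shares of cells with a UMI were thinned to 1500 UMIs, which left out 8 NK cells. Gene positions came from GENCODE vM21 (32158 of 32285 identifiers matched). On simulated data with 200 changed genes, the fit against CD8 T cells (3122 genes) made 10 false calls and recovered 71% of log2 changes of 1 and 95.7% of 2, and the fit for anti-MIF (1584 genes) made 3 and recovered 24.5% and 94.1%. Simulated counts were drawn per sum, not per cell, from 1 mean per gene and its fitted spread. They held no other effect of arm, cohort or treatment. These rates need not hold for genes whose UMIs lie in single barcodes, such as Gzmd. A few genes of these lists are counted but not reported here by name.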

Additional observations from a re-analysis of the deposited data

Results flagged for a closer look

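Of 14 sets of arm values examined, 2 had 1 arm far from the others. Chance alone can mark some sets, at a rate that was not measured here. The NK share of the short anti–PD-1 arm, 8.518%, lay far above the other 4 arms of that cohort. This arm also had the most kept barcodes and the hashtag with the highest median over all barcodes, and their part was not tested. The ratio of NK cells to CD8 T cells in the long arm of the 5th hashtag, 0.75, lay far above the other 4 arms of the long cohort, and it rested on 6 NK cells and 8 CD8 T cells.

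The change of that ratio with anti-MIF ran in opposite directions in the cohorts. The mean log2 difference was 0.4374 in the long cohort, positive in both pairs, and -1.487 in the short cohort, negative in both. The difference between the cohorts was not tested.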

How the results depend on the processing

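Arms held 5 to 146 NK cells, so depth limited the long cohort most. In the comparison with CD8 T cells 554 genes passed. The count was 875 with no filter on low counts and 278 with no arm block, where 1526 genes in place of 3114 passed the count filter, and it ran from 427 to 575 with each arm left out. Of 1723 values of 88 named genes under the alternatives, 1670 kept their direction and side of the threshold, 32 values of 9 genes (Gzmd, Gzme, Gzmf, Ets1, Klra5, Cd74, Stmn1, H2-Aa and H2-Ab1) no longer passed, and 19 values newly passed, of Klrd1, Il2rb, Ccl4, Ccl5, Tigit, Nkg7 and Jund. Cd74 reversed, to -0.41 with at least 3 UMIs of the NK receptors and to -0.88 with the limit on class II genes. That limit, the arms from HTODemux and the 5th hashtag as a further pair were chosen after seeing the data.

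For the long against the short cohort (0 genes as reported), 5 genes passed in DESeq2, 53 with no filter, 17 with at least 3 UMIs of the NK receptors, 2 with HTODemux, 16 with the limit on class II genes and 0 to 7 with an arm left out (7 without the short anti-MIF arm). For anti–PD-1 (0 genes), 5 passed with no filter and 0 to 1 with an arm left out (1 without the long anti–PD-1 and 1 without the short anti-MIF arm). For anti-MIF (1 gene), 2 passed in DESeq2, 14 with no filter, 0 with arms of at least 10 cells, 4 with at least 3 UMIs of the NK receptors, 4 with the limit on class II genes and 0 to 7 with an arm left out (0 without the long anti–PD-1/anti-MIF, 7 without the short anti-MIF arm). The cause of these shifts was not tested.

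With a pair left out, the share difference ran from -2.86 to -0.909 for anti-MIF, from 0.846 to 2.75 for anti–PD-1 and from -2.21 to -0.254 for the cohorts. The log2 ratio of NK to CD8 T cells ran from -0.914 to 0.0482 for anti-MIF, reversed without the short pair of anti-MIF and isotype, from 0.208 to 0.713 for anti–PD-1 and from -2.40 to -1.43 for the cohorts. With the 5th hashtag as a further pair the last was -1.60 (exact permutation p = 0.0625). With a leading hashtag of at least 5 times the next, these 3 log2 differences were -0.193, 1.08 and -2.61, the 3 share differences were -1.41, 2.85 and -2.48, and the long isotype arm had 0 of 59 barcodes, which allows up to 5.08%, in place of 3.14%. With at least 3 UMIs of the NK receptors the short anti–PD-1 share was 7.06% in place of 8.52%. The other 78 of 80 arm shares stayed within their intervals.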
